A study of Mus musculus with 23 samples.

Results

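This section describes 51 mouse genes for collagens and for the enzymes and inhibitors that shape the collagen matrix, in the livers of mice with and without a liver ablation of Cpt1a. The members were chosen by name: protein-coding genes whose symbols place them among the collagen chains, the matrix metalloproteinases (Mmp), their tissue inhibitors (Timp), the Adamts proteases or the lysyl oxidases (Lox, Loxl), without Mmp12, listed in both deposited tables and with a mean of at least 10 raw counts over the livers of either table. Of 22852 genes listed in both tables, 80 met the name rule without Mmp12, and 51 of these met the minimum. The members nearest above it were Col8a1 and Col6a6, with larger means of 10.6 and 11.5 counts, and the genes nearest below it were Col6a5 and Adamts4, with 9.82 and 8.82 counts. Lox itself, at 8.45 counts in males, was not a member.

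RNA was sequenced in bulk from 23 livers. All mice carried the B100 background, ate a diet labelled WD for 16 weeks and were fed at necropsy. The groups were 6 control females, 6 LKO females, 5 control males (replicates 1, 2, 3, 4 and 6) and 6 LKO males. LKO is read here as the hepatic ablation of Cpt1a named in the series title; the promoter of the Cre or the allele is not given in the sources used here. The question of each comparison was which of these genes differ between LKO and control livers of 1 sex. P-values of group differences set the difference against the spread between these livers.

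Collagens are matrix proteins whose chains wind into a helix. Fibrillar collagens form the tensile fibres of scar and vessel walls, network collagens form the sheet under cells, and the remaining classes bind fibrils or anchor cells. After secretion, Adamts2 and Adamts14 remove the amino-terminal propeptide of procollagen, lysyl oxidases crosslink the fibres, metalloproteinases cut them, and Timp proteins inhibit the metalloproteinases. In liver, stellate cells and portal fibroblasts are the main makers of fibrillar collagen, while hepatocytes make the endostatin-bearing collagen Col18a1.

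The members fell into 12 classes. The 8 fibrillar chains were Col1a1, Col1a2, Col3a1, Col5a1, Col5a2, Col5a3, Col11a2 and Col27a1. The basement membrane and network class held Col4a1, Col4a2, Col4a5 and Col8a1, and the beaded filament class Col6a1, Col6a2, Col6a3 and Col6a6. Fibril-associated members were Col12a1, Col14a1, Col16a1 and Col20a1, the multiplexins were Col15a1 and Col18a1, and the transmembrane collagens were Col13a1 and Col23a1. The 27 enzymes and inhibitors were Loxl1 to Loxl4, the N-proteinases Adamts2 and Adamts14, 8 other Adamts genes (Adamts1, Adamts5, Adamts6, Adamts7, Adamts9, Adamts10, Adamts13 and Adamts15), the secreted Mmp2, Mmp9, Mmp11, Mmp13, Mmp19 and Mmp27, the membrane-bound Mmp14, Mmp15, Mmp17 and Mmp23, and Timp1, Timp2 and Timp3.

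The libraries held 14224665 to 19626662 counts per liver. Cpt1a, the targeted gene, checked the labels: it was 285 to 430.1 CPM in control females against 61.7 to 86.2 CPM in LKO females, and 303 to 430.4 CPM in control males against 42.2 to 96.7 CPM in LKO males. The 7 hepatocyte markers, such as Alb and Ttr, summed to a median of 83493 CPM in control females (78725 to 95390) and 74047 CPM in LKO females (54663 to 86265). In males the medians were 65880 CPM in controls (56913 to 81465) and 56023 CPM in LKO livers (53473 to 73363). Between LKO and control livers, 6 of the 7 had a negative log2 fold change in females and 4 in males, with none called. None was at 0 in all livers of a sex. CPM are raw counts relative to the library's total, scaled by TMM factors within a table. Control male replicate 4 stood apart among the control males: 28 of the 51 members were lowest there, while 20 each were highest in replicates 1 and 3. Replicate 4 also had the lowest total, 14224665 counts, and 18232 genes with counts, where the other control males had 19209 to 19584. The pancreas markers summed to 72.8 CPM in this liver beside a control male median of 20.9. The 4 adipose tissue markers summed to 10.3 CPM there beside a median of 232. Only 1 of these 4 was high enough to test in either sex. In females it was Cidec, at a mean of 11.3 CPM in controls and 45.8 CPM in LKO livers. The log2 fold change of Cidec was 2.01 (SE 0.32, edgeR adjusted p = 0.00691). Adipoq, Plin1 and Lep had means of 0.185, 0.288 and 0.0191 CPM in control females and 0.380, 0.449 and 0.0081 CPM in LKO females. Among the LKO males, 27 members were lowest in replicate 1 and 27 were highest in replicate 3. In a bulk sample, fewer cells of a type and less RNA per cell cannot be told apart.

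Before the values, promoter sequences are shown for Col1a2, Col3a1 and Timp1, each of which is set against Col1a1 across livers below. They are also shown for the 2 chains of type IV collagen, which share a divergent start. Windows of 300 bases, 250 before to 50 after a start, were taken from RefSeq (GRCm38.p6), where 35 of the 51 members had an entry, with 38 windows in all. Col1a1 itself had no entry. The counts themselves came from build mm39, so the 2 sets of positions are not interchangeable. Capitals mark matches on either strand to 4 motifs: the TATA box as TATAAA, the CCAAT box as CCAAT, the GC box as GGGCGG and the AP-1 site as TGAGTCA. Matches overlapped one another in 3 of the 38 member windows and in none of the genes shown. Col1a2, a chain of type I collagen, is given over the 250 bases before its start at chr6:4505368-4505617 on the plus strand, Col3a1, the type III chain, at chr1:45311288-45311537 on the plus strand, and Timp1, an inhibitor, at chrX:20869916-20870165 on the plus strand.
Col1a2: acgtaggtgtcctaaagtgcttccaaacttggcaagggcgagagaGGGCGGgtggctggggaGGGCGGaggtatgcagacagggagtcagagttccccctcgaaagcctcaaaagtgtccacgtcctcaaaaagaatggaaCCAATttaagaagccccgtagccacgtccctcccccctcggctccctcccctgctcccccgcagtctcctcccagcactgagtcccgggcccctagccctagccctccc
Col3a1: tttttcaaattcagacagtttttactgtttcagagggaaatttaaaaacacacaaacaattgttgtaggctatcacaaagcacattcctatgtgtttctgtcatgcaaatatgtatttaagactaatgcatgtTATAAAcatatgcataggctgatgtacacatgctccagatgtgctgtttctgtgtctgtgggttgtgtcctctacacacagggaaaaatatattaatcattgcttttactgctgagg
Timp1: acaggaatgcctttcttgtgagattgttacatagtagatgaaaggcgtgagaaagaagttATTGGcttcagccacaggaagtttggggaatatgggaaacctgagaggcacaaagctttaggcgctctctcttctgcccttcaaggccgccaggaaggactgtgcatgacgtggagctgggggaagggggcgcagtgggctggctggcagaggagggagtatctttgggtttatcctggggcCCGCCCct

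The Col4a1 and Col4a2 genes lie head to head on chromosome 8, and in the mm39 positions of the tables they overlap by 22 bases. Their promoter windows share 78 bases. The GC box in this shared part begins at position 10 after the start of Col4a1 and position 8 after that of Col4a2, so it is not upstream of either. Each stretch below is 30 bases in the direction of the named gene: the CCAAT match of Col4a1 (chr8:11312954-11312983, minus strand), the GC box and CCAAT match of Col4a2 (chr8:11312752-11312781, plus strand), and the GC box that lies in both windows (chr8:11312800-11312829, shown on the plus strand).
Col4a1: tgcttgcccgggATTGGcgagccaaggggc
Col4a2: gcgcgCCGCCCgaggagctccCCAATttgt
Shared GC box: tcggcagtgcgcGGGCGGcgtctccaaggg

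The GC box letters GGGCGG were in 28 of the 38 member windows (73.7 percent) and in 35.7 percent of all 32851 windows of the same length. CCAAT was in 28.9 percent of member windows against 37.4 percent, TATAAA in 13.2 against 13.6 percent, and TGAGTCA in 5.26 against 5.20 percent. These are matches of letters and were not tested.

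Levels of different genes are compared as FPKM, the deposited values per transcript length and library size. Col18a1 was far above every other member, with a mean of 174 FPKM over the control livers, and it made up 56.2 to 85.7 percent of the summed FPKM of the 24 collagens in a liver. Next came the membrane-bound protease Mmp15 at 9.22 FPKM, the fibril-associated Col14a1 at 8.39, the secreted protease Mmp19 at 7.26, Mmp14, which activates Mmp2, at 7.15 and Col4a1 at 6.11. In control females, Mmp15 ranged from 4.12 to 9.05 FPKM and Mmp19 from 7.66 to 9.15 FPKM, so genes close in this order overlapped between livers. The type I chains stood lower, at a mean FPKM of 4.81 for Col1a1 and 2.52 for Col1a2. Without Col18a1, the collagens summed to a median of 41.5 FPKM in control females, 51.8 in LKO females, 62.4 in control males and 72.1 in LKO males, with overlapping ranges within each sex.

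**Figure D1:**
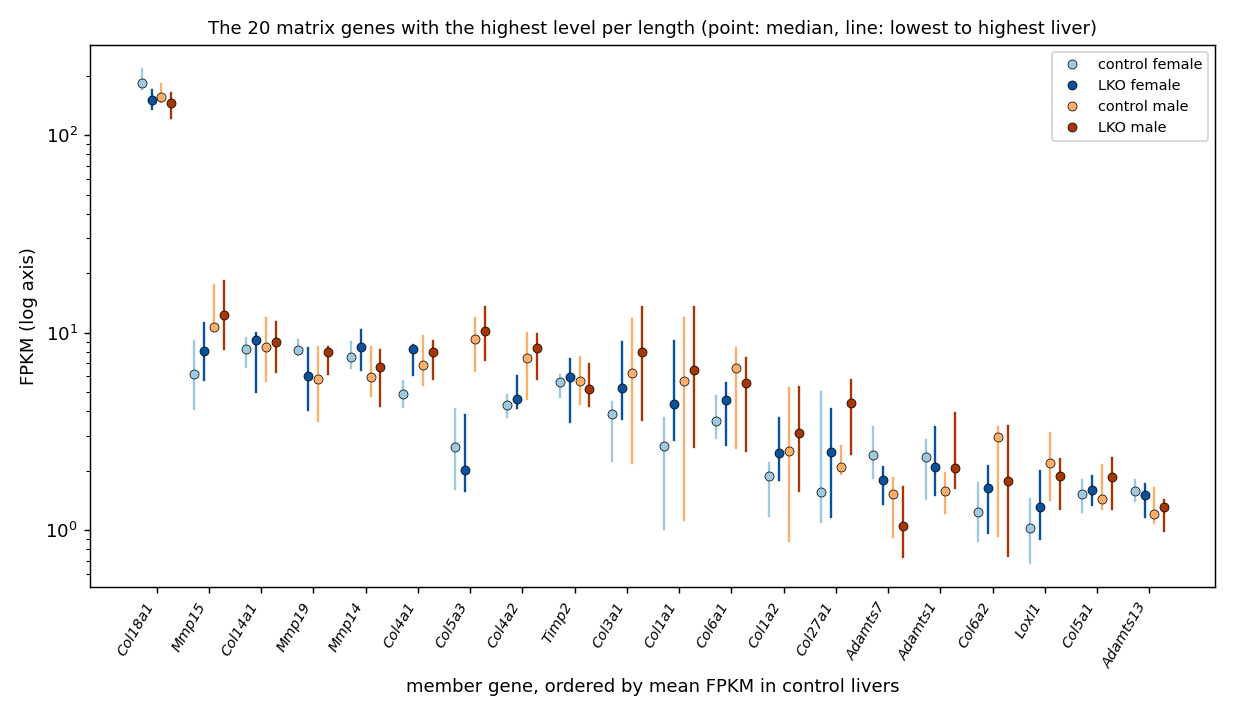
FPKM on a log axis for the 20 members with the highest mean over control livers; points are group medians and lines run from the lowest to the highest liver of a group. Col18a1 stands above all others in every group, and Col5a3 is higher in both male groups than in both female groups by their medians.

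In females, 1 member differed between LKO and control livers: Col4a1, a chain of the basement membrane collagen, was 1.59-fold higher in LKO livers. Of all 13684 genes tested, 1.42 percent were called at an adjusted p under 0.05 (edgeR quasi-likelihood test, Benjamini-Hochberg adjustment over all genes tested), and of the 47 members tested 2.13 percent, a share near the background; on the higher side 0.928 percent of all genes were called. At an unadjusted p under 0.05, 10 members were higher and 4 lower, 21.3 and 8.51 percent, where 8.31 and 7.33 percent of all genes were. The log2 fold change was positive in 33 members and negative in 14. Its median over the members was 0.18, beside 0.01 over all genes tested. Col6a6, Col8a1, Mmp13 and Timp1 were too low in females for the test.

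Col4a1 (ENSMUSG00000031502, chromosome 8, 11248423 to 11362826, minus strand, mm39) was 31.1 CPM in the lowest, 36.2 CPM in the median and 42.5 CPM in the highest control female liver. In LKO females it was 45.6, 62.0 and 64.8 CPM. All 6 LKO livers lay above all 6 controls, a separation that 1.60 percent of all genes tested had in either direction and 1.05 percent had on the higher side. Its log2 fold change was 0.67 (SE 0.11, edgeR adjusted p = 0.00803), and over 21 alternative fits it ran from 0.57 to 0.74 with adjusted p from 6.19e-06 to 0.0257. Its partner chain Col4a2 (11362805 to 11499287, plus strand) was 24.5, 28.4 and 31.9 CPM in control females and 27.7, 30.8 and 39.9 CPM in LKO females. The 2 groups of Col4a2 overlapped, and the log2 fold change was 0.18 (SE 0.10, edgeR adjusted p = 0.420). The ratio of Col4a1 to Col4a2 FPKM had a median of 1.57 in LKO females and 1.09 in control females, and 0.975 and 0.930 in LKO and control males; this is a description and was not tested. Col4a5, an X-linked chain of the same family, had a log2 fold change of 0.36 with SE 0.30 (edgeR adjusted p = 0.627).

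None of the 8 fibrillar chains passed the test in females, although 6 had a positive log2 fold change and 4 were higher at an unadjusted p under 0.05. Col1a1 was 6.63, 17.4 and 23.9 CPM in the lowest, median and highest control female and 18.6, 28.5 and 59.6 CPM in the LKO females. On the log2 scale the fold change was 1.04 (SE 0.33, edgeR adjusted p = 0.131). Of 21 alternative fits, 1 called Col1a1, the fit with a replicate block. LKO female replicates 3 and 4, at 59.6 and 48.7 CPM, were the highest, and the 3 lowest LKO livers lay within the control range. Its partner chain Col1a2 ran from 14.6 to 26.8 CPM in controls and from 22.1 to 45.7 CPM in LKO livers, with a log2 fold change of 0.57 with SE 0.20 (edgeR adjusted p = 0.170). Col3a1 ran from 21.9 to 43.1 CPM in controls and from 35.6 to 88.2 CPM in LKO livers, with a log2 fold change of 0.74 with SE 0.23 (edgeR adjusted p = 0.125). The groups of these 3 genes overlapped.

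Col5a2, a minor chain that joins type I fibrils, was 2.36, 3.23 and 4.04 CPM in the lowest, median and highest control female and 3.57, 5.21 and 5.46 CPM in the LKO females. Only LKO female replicate 5, the lowest, lay among the controls. LKO over control came to 0.63 on the log2 scale (SE 0.16, edgeR adjusted p = 0.0691), and without that liver the gene was called. Col27a1 differed little in the mean, with a log2 fold change of 0.27 with SE 0.38 (edgeR adjusted p = 0.799), and control female replicate 4 reached 64.6 CPM where the other controls ran to 23.9 CPM. The beaded filament chain Col6a3 had a log2 fold change of 0.58 with SE 0.19 (edgeR adjusted p = 0.139), and Col6a1 0.28 (SE 0.16, edgeR adjusted p = 0.419).

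Among the enzymes, the crosslinking oxidase Loxl2 was closest to the threshold in females. It was 1.99, 2.44 and 3.43 CPM in the lowest, median and highest control and 3.18, 4.14 and 5.33 CPM in the LKO livers, and 1 LKO liver lay below the highest control. The log2 fold change was 0.77 (SE 0.18, edgeR adjusted p = 0.0517), and it was called without control female replicate 2 or without LKO female replicate 1. Loxl1 had 0.39 (SE 0.22, edgeR adjusted p = 0.420). The N-proteinase Adamts2 was 6.58, 7.66 and 9.52 CPM in controls and 7.93, 11.8 and 15.6 CPM in LKO females, with overlapping groups. Its log2 fold change was 0.57 (SE 0.16, edgeR adjusted p = 0.0954), and it was called without LKO female replicate 6. Adamts15 and Adamts10, both higher at an unadjusted p under 0.05, had log2 fold changes of 0.65 and 0.31 (edgeR adjusted p = 0.238 and 0.284).

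The 4 members on the lower side in LKO females at an unadjusted p under 0.05 were of 4 different classes. Mmp19, a secreted protease, was 26.9, 28.7 and 31.9 CPM in the lowest, median and highest control and 14.4, 21.4 and 29.4 CPM in the LKO livers. Only LKO female replicate 6 reached the control range, and without it Mmp19 was called; with all livers the log2 fold change was -0.41 (SE 0.13, edgeR adjusted p = 0.124). Col18a1 ran from 1187 to 1508 CPM in controls and from 954.5 to 1189 CPM in LKO females, a log2 fold change of -0.28 with SE 0.09 (edgeR adjusted p = 0.139). The ranges met at their edges. Adamts7 had -0.45 (SE 0.16, edgeR adjusted p = 0.165) and Col20a1 -0.60 (SE 0.22, edgeR adjusted p = 0.2), with overlapping groups.

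Timp1, the inhibitor that accompanies liver scarring, was near the limit of counting in control females. It had 0 to 11 counts there, or 0, 0.360 and 0.629 CPM in the lowest, median and highest liver, and 8 to 43 counts or 0.453, 0.990 and 2.08 CPM in LKO females. Fitted with no filter on low counts, its log2 fold change was 1.65 (SE 0.52, edgeR adjusted p = 0.161). The collagenase Mmp13 had at most 13 counts in any female liver, and in the same unfiltered fit a log2 fold change of 1.21 with SE 0.41 (edgeR adjusted p = 0.214). The other inhibitors were higher in level, with log2 fold changes of 0.10 for Timp2 (SE 0.14, edgeR adjusted p = 0.793) and -0.12 for Timp3 (SE 0.28, edgeR adjusted p = 0.891). The gelatinases cut denatured collagen, and of these Mmp2 had 0.50 (SE 0.32, edgeR adjusted p = 0.496) and Mmp9 0.03 (SE 0.30, edgeR adjusted p = 0.977). The membrane-bound Mmp14 and Mmp15 had 0.13 and 0.34 (edgeR adjusted p = 0.687 and 0.374), Mmp17 had 0.13 (edgeR adjusted p = 0.887), Col14a1 had 0.06 (edgeR adjusted p = 0.884), Adamts1 had 0.05 (edgeR adjusted p = 0.943) and Adamts6 had -0.65 (edgeR adjusted p = 0.403).

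The number of members called in females depended on the test. The authors' deposited table for females holds 6 of the 51 members with an adjusted p under 0.05 (11.8 percent), where 554 of its 24940 genes were (2.22 percent): Col4a1, Loxl2, Col5a2, Adamts2 and Col3a1 on the higher side and Col18a1 on the lower. DESeq2 run here called 6 members, and 4.09 percent of the 13671 genes to which it gave an adjusted p. Leaving out 1 liver gave 1 to 3 member calls with edgeR, and 87 to 233 calls over all genes. Loxl2 joined Col4a1 without control female replicate 2 or LKO female replicate 1, Col5a2 without LKO female replicate 5, and Adamts2 and Mmp19 without LKO female replicate 6.

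**Figure D2:**
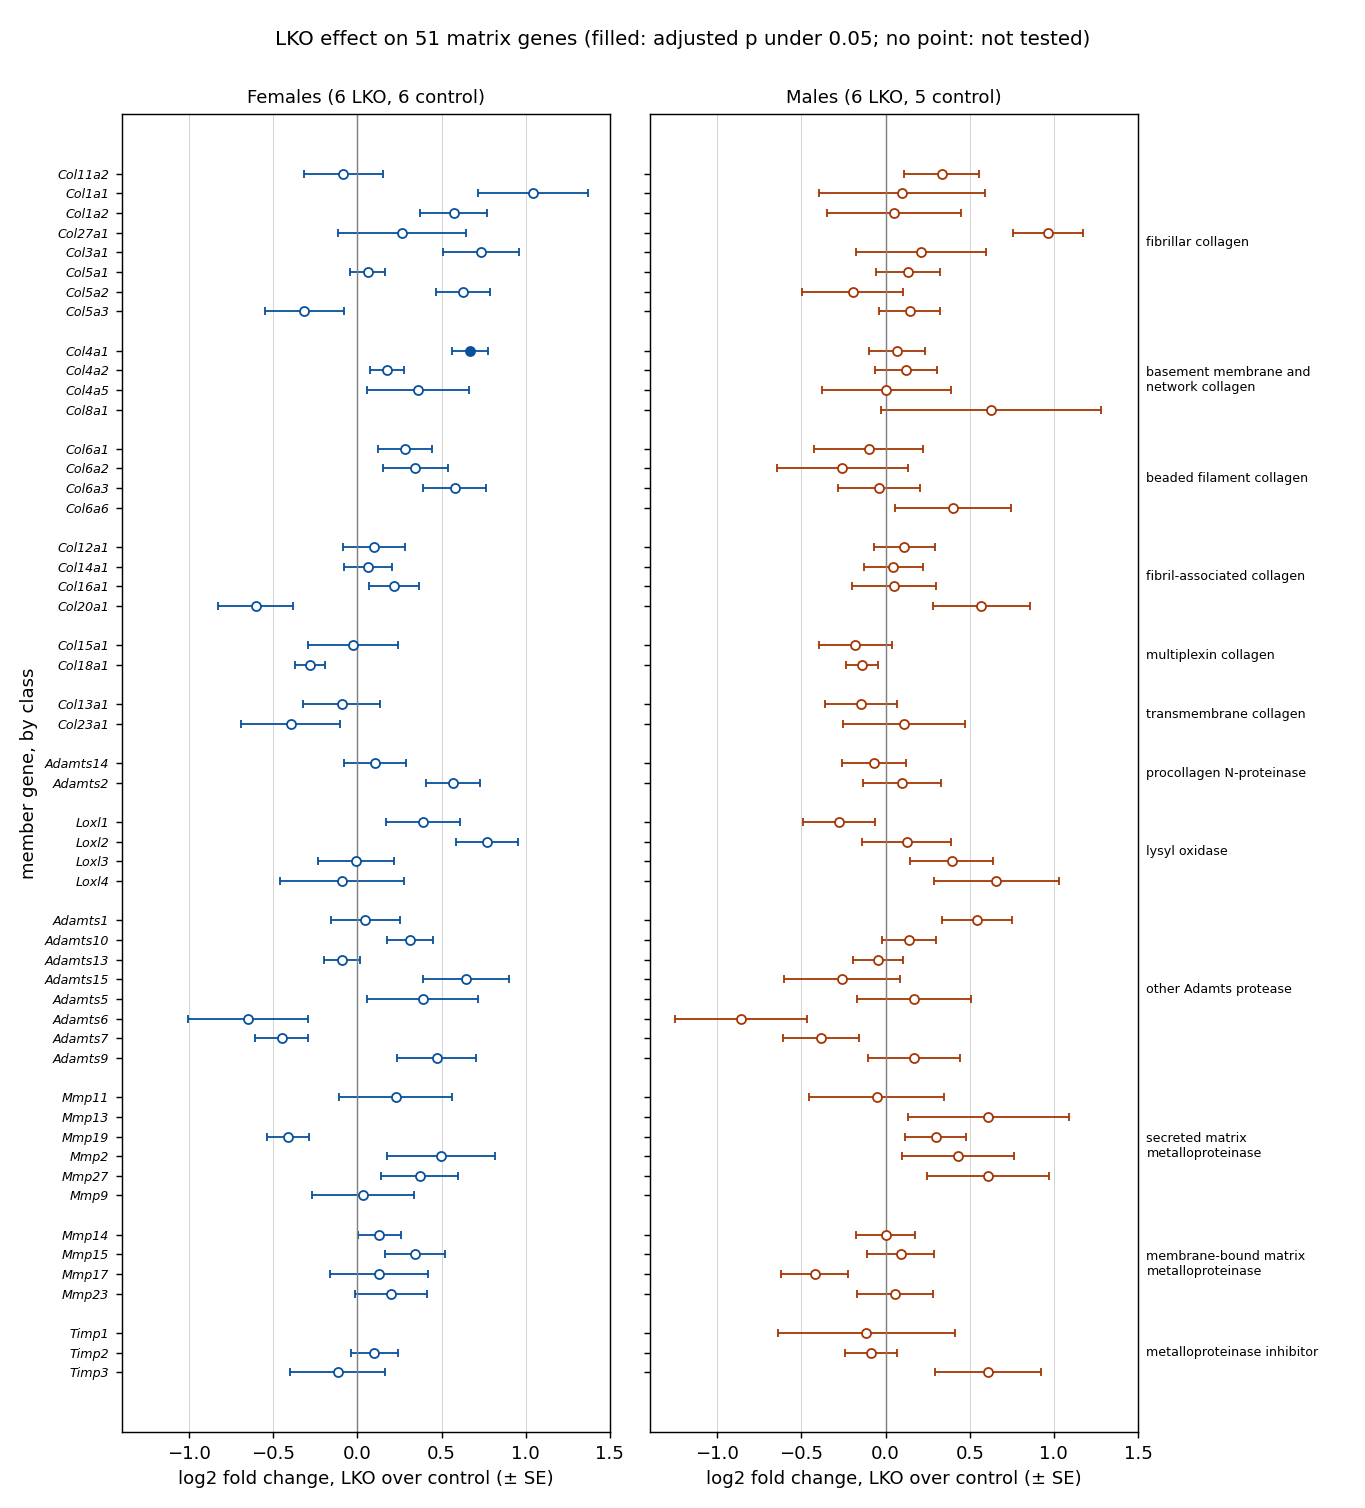
Log2 fold change of LKO over control with its standard error for the 51 members by class, females left and males right; filled points have an edgeR adjusted p under 0.05 and members not tested have no point. Col4a1 in females is the 1 filled point.

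In males, no member was called, and 0.00724 percent of all 13805 genes were, which is Cpt1a alone. At an unadjusted p under 0.05 there were 3 of 50 members tested, 6.0 percent, where 12.5 percent of all genes passed. Col27a1 and Adamts1 were on the higher side (5.23 percent of all genes) and Adamts6 on the lower (7.22 percent). DESeq2 called 1 member, Col27a1, and 1.29 percent of the 8714 genes to which it gave an adjusted p. The 2 male groups overlapped for every member tested, while they did not for 1.77 percent of all genes, 1.10 percent on the lower side. The log2 fold change was positive in 32 members and negative in 18, with a median of 0.09 beside 0.01 over all genes tested. Mmp9 was too low in males for the test, and with no filter its log2 fold change was -0.09 (SE 0.42, edgeR adjusted p = 0.964).

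Col27a1, a fibrillar collagen known from cartilage, was 27.9, 26.4, 35.4, 30.8 and 25.3 CPM in control male replicates 1, 2, 3, 4 and 6, and 32.4, 58.3 and 77.1 CPM in the lowest, median and highest LKO male. Of the 6 LKO livers, 5 lay above every control. LKO over control was 0.96 on the log2 scale (SE 0.21), with an unadjusted p of 0.000469 and an edgeR adjusted p of 0.216. In the authors' deposited table for males it is the 1 member with an adjusted p under 0.05 (1.96 percent of members), where 107 of 24434 genes were (0.438 percent). Adamts1, a protease of proteoglycans, was 10.6, 9.02, 8.01, 8.41 and 6.54 CPM in the controls, in the same order, and 8.79, 11.1 and 20.9 CPM in the LKO males. Its log2 fold change was 0.54 (SE 0.21, edgeR adjusted p = 0.324), and LKO male replicate 4 alone reached 20.9 CPM. Adamts6 was at most 1.99 CPM in any male liver, with a log2 fold change of -0.86 with SE 0.39 (edgeR adjusted p = 0.391).

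The main fibrillar collagens were spread widely between male livers of 1 genotype. Col1a1 was 78.1, 37.8, 79.3, 7.44 and 34.8 CPM in control male replicates 1, 2, 3, 4 and 6, and 17.7, 43.4 and 91.4 CPM in the lowest, median and highest LKO male. Replicate 4 was the lowest and replicates 1 and 3 the highest of the controls, also for Col1a2 and Col3a1. Log2 fold changes were 0.10 for Col1a1 (SE 0.49, edgeR adjusted p = 0.960), 0.05 for Col1a2 (SE 0.40, edgeR adjusted p = 0.975) and 0.21 for Col3a1 (SE 0.39, edgeR adjusted p = 0.876). Without control male replicate 4 they were -0.18, -0.19 and -0.02. Timp1 was 4.07, 1.07, 3.25, 0.243 and 1.17 CPM in the same controls and 0.746 to 2.86 CPM in LKO males, with a log2 fold change of -0.12 with SE 0.53 (edgeR adjusted p = 0.955).

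Col4a1 was 73.2, 44.6, 67.4, 40.6 and 51.5 CPM in the control males and 44.5, 61.0 and 69.8 CPM in the lowest, median and highest LKO male, with a log2 fold change of 0.07 with SE 0.17 (edgeR adjusted p = 0.913). The 2 male groups covered almost the same range. Col4a2 had 0.12 (SE 0.18, edgeR adjusted p = 0.848), and both turned slightly negative without control male replicate 4, at -0.03 and -0.01. Among the remaining named members in males, the log2 fold changes were 0.61 for Timp3 (SE 0.31, edgeR adjusted p = 0.452), 0.57 for Col20a1 (SE 0.29, adjusted p = 0.447), 0.43 for Mmp2 (SE 0.33, adjusted p = 0.637) and 0.61 for Mmp13 (SE 0.48, adjusted p = 0.644). On the negative side were Mmp17 at -0.42 (SE 0.20, edgeR adjusted p = 0.407), Adamts7 at -0.39 (SE 0.23, adjusted p = 0.507), Loxl1 at -0.28 (SE 0.21, adjusted p = 0.642), Col5a2 at -0.19 (SE 0.30, adjusted p = 0.853) and Col18a1 at -0.14 (SE 0.10, adjusted p = 0.574). Mmp14 stood at 0 with an SE of 0.17, and Adamts2, Col6a1, Col6a3, Col14a1, Loxl2, Mmp15 and Timp2 lay between -0.10 and 0.12, with edgeR adjusted p from 0.877 to 0.966. Mmp19 had 0.30 (SE 0.18, edgeR adjusted p = 0.524).

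**Figure D3:**
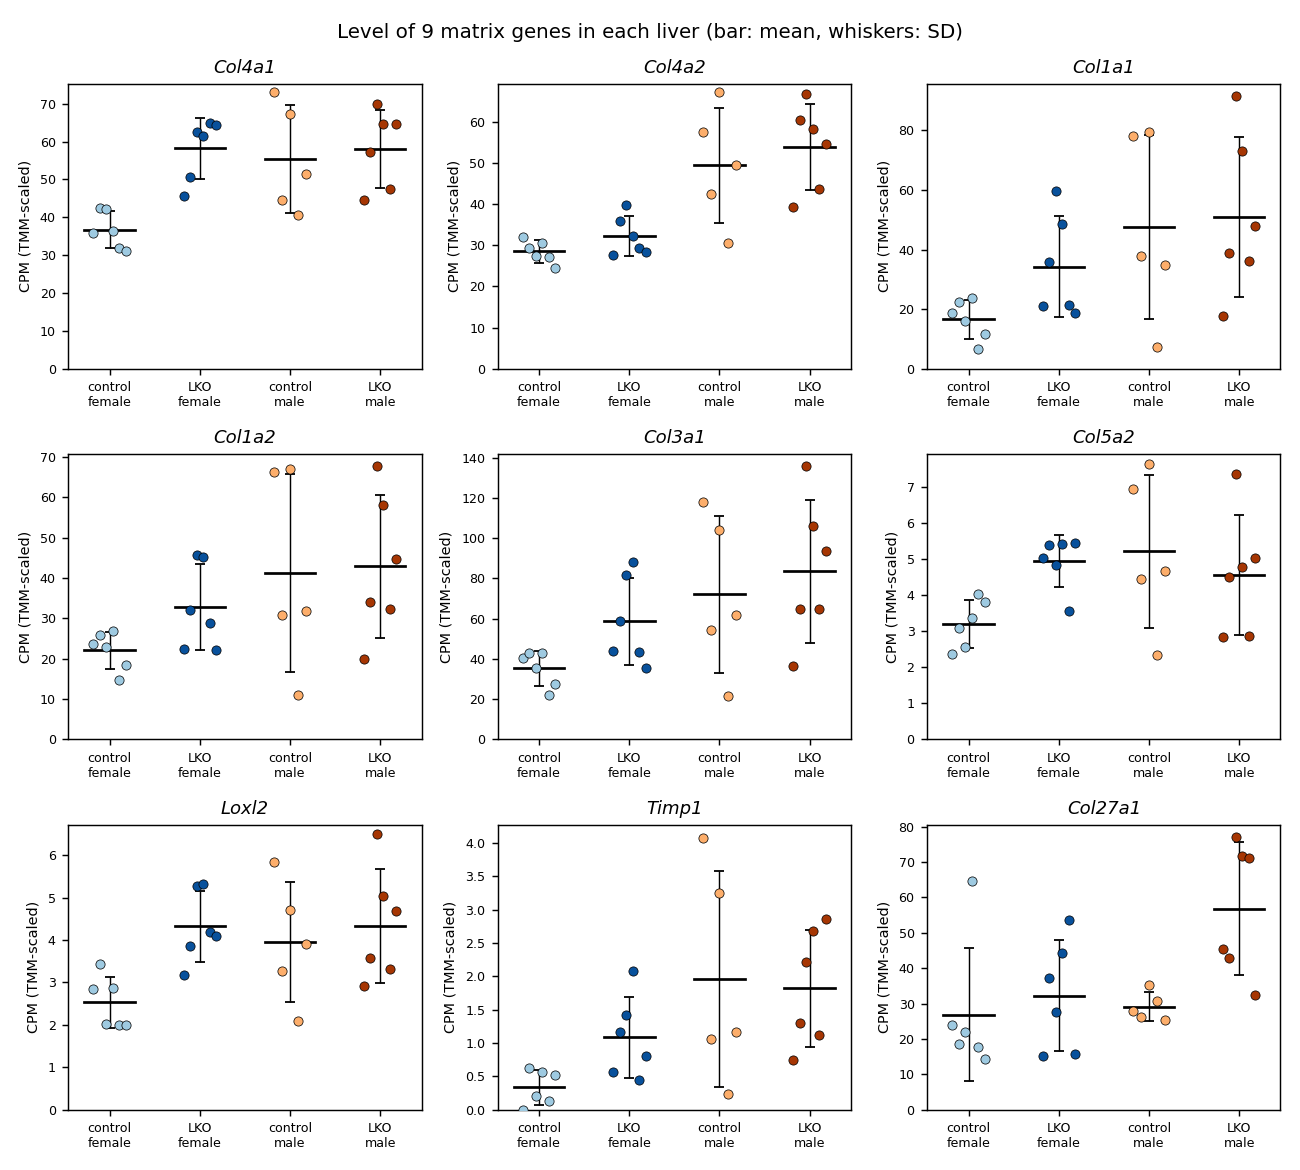
CPM of 9 members in each of the 23 livers, in panels of their own with axes from 0; points are livers, bars the group means and whiskers the SD. All 6 LKO females lie above all 6 control females for Col4a1, the male groups overlap in all 9 panels, and control male replicate 4 is the low point for Col1a1, Col1a2, Col3a1 and Timp1.

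The difference between the sexes in the LKO effect was tested as an interaction over the 23 livers. No member and no gene passed (0 of 14503, edgeR adjusted p under 0.05), while 12.9 percent of all genes and 13.7 percent of the 51 members had an unadjusted p under 0.05: 5 members on the positive side (6.98 percent of all genes) and 2 on the negative (5.94 percent). DESeq2 called 96 genes, 0.718 percent of the 13368 to which it gave an adjusted p, none of them a member. The lowest p-values among members were those of Col20a1, with a female minus male difference of -1.17 in log2 fold change (SE 0.37, edgeR adjusted p = 0.212), Mmp19 at -0.71 (SE 0.23, adjusted p = 0.229) and Col4a1 at 0.60 (SE 0.20, adjusted p = 0.248). The effect of LKO on Col4a1 was thus not shown to differ between the sexes. Without control male replicate 4, 17 genes passed, again with no member among them.

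**Figure D4:**
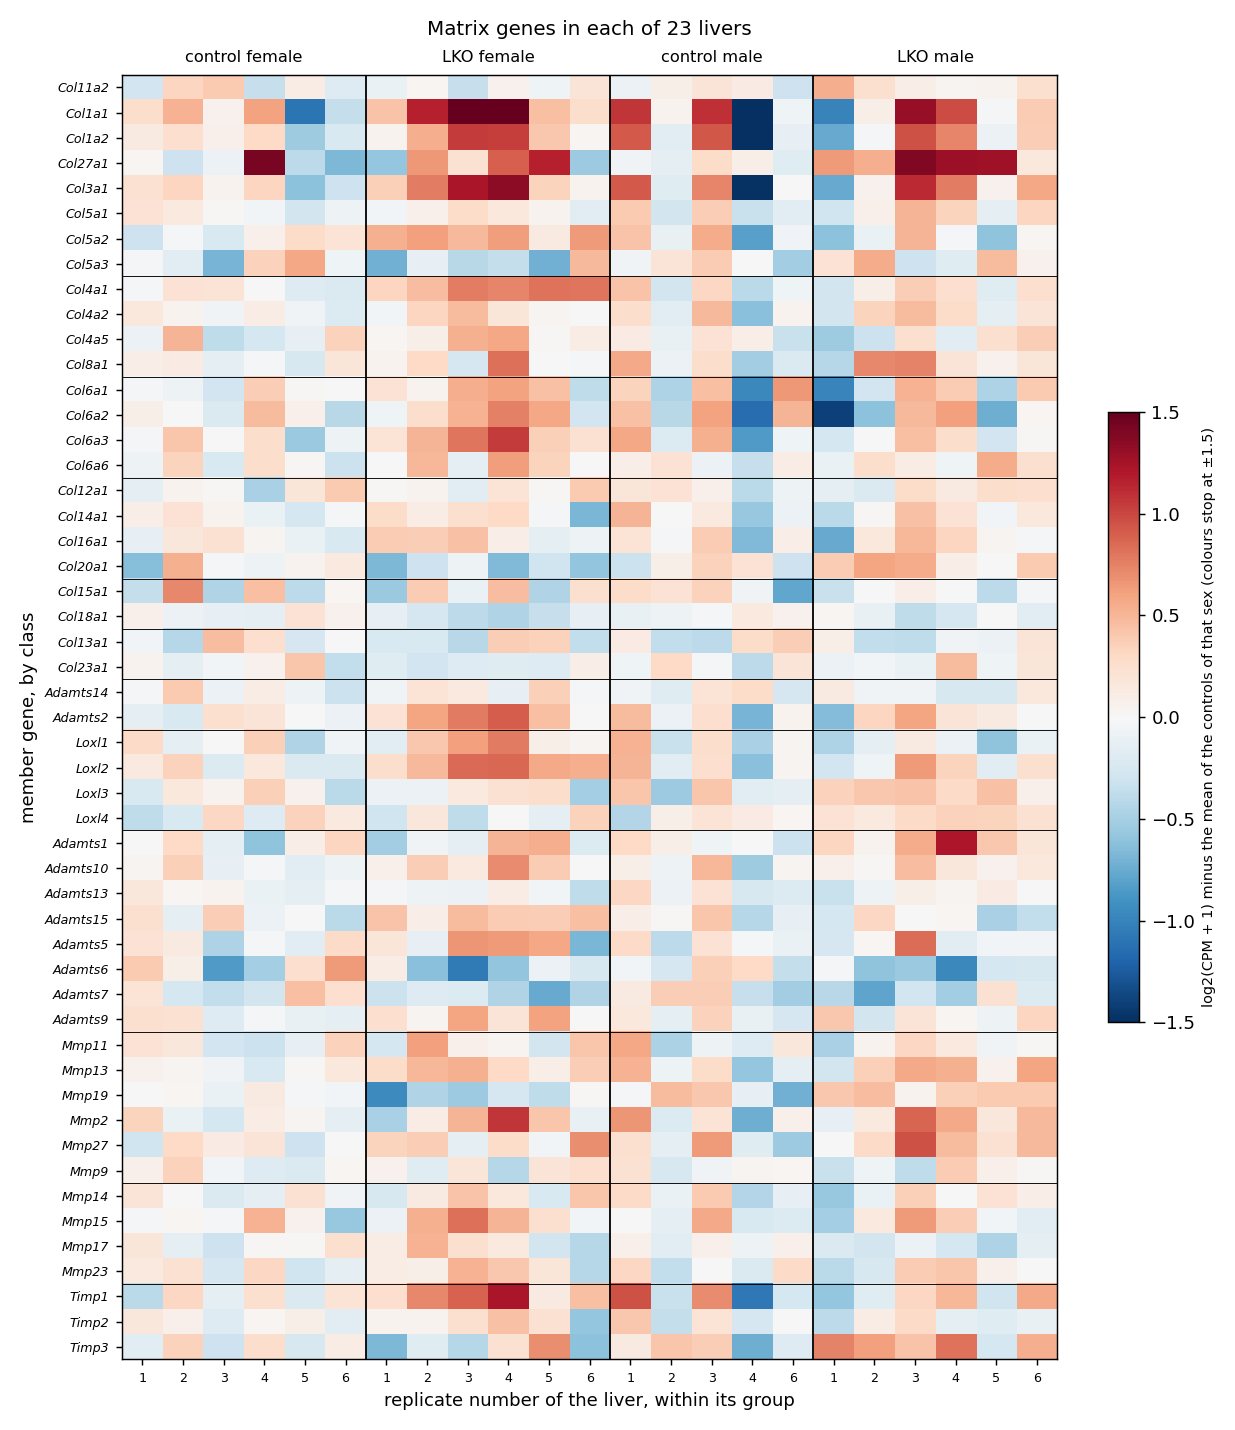
Each column is a liver, each row a member by class, and the colour is log2(CPM + 1) minus the mean of the controls of that sex, with colours stopping at 1.5 in either direction. The rows of Col1a1, Col1a2 and Col3a1 are dark blue in control male replicate 4. They are red in control male replicates 1 and 3 and in LKO male replicates 3 and 4. The Col4a1 row is red in all 6 LKO females.

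Between 6 control females and 5 control males, 12 of 47 members tested were called (25.5 percent), where 18 percent of all 13699 genes were: 9 lower in females (19.1 percent of members, 9.20 percent of all genes) and 3 higher (6.38 and 8.80 percent). Sex coincides with the deposited table, so the 2 cannot be told apart here. The 9 that were lower in females were Col1a1, Col4a1, Col4a2, Col5a3, Col6a2, Loxl1, Adamts2, Mmp15 and Timp1, and the 3 that were higher were Col20a1, Adamts1 and Adamts7. In 4 of the 47 members (8.51 percent) the groups did not overlap, against 10.3 percent of all genes (5.11 percent on the higher side).

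Col5a3, a minor fibrillar chain, was 59.5, 71.3, 80.1, 61.6 and 42.8 CPM in control male replicates 1, 2, 3, 4 and 6 and 10.9, 17.7 and 27.7 CPM in the lowest, median and highest control female, scaled over the 11 controls together. It fell by 1.73 on the log2 scale from males to females (SE 0.21, edgeR adjusted p = 0.00017), with no overlap. Col20a1, a fibril-associated collagen, was 0.665, 1.21, 1.63, 1.42 and 0.681 CPM in the males and 2.09, 3.88 and 5.97 CPM in the females, a log2 difference of 1.83 (SE 0.30, edgeR adjusted p = 0.0016), also with no overlap. Mmp15 was 53.6 to 92.8 CPM in males and 21.9 to 48.3 CPM in females, at -0.92 (SE 0.18, edgeR adjusted p = 0.00485). The groups of Adamts7 did not overlap either, by a narrow margin, with 11.4 CPM as the lowest female and the highest male value, at a log2 difference of 0.78 (SE 0.21, edgeR adjusted p = 0.0226).

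The other 8 called members overlapped between the sexes. Col4a1 and Col4a2 were lower in females by similar amounts, at -0.56 (SE 0.15, edgeR adjusted p = 0.0217) and -0.76 (SE 0.16, adjusted p = 0.00612). Loxl1 stood at -1.01 (SE 0.23, edgeR adjusted p = 0.0101), Col6a2 at -0.95 (SE 0.28, adjusted p = 0.034) and Adamts2 at -0.57 (SE 0.19, adjusted p = 0.0491). Col1a1 was at -1.48 (SE 0.46, edgeR adjusted p = 0.0413), Timp1 at -2.46 (SE 0.67, adjusted p = 0.023) and Adamts1 at 0.55 (SE 0.17, adjusted p = 0.0435). Col5a3, Col20a1, Mmp15, Col4a2 and Loxl1 passed in all 16 alternative fits. The call was lost in 2 of these for Col4a1 and Adamts7 each, in 2 of the 14 that gave a value for Timp1, in 8 for Col6a2, in 9 for Col1a1, in 10 for Adamts1 and in 11 for Adamts2. Without control male replicate 3 there were 6 calls, and 7 without control male replicate 1 or 6 or without control female replicate 2 or 6. Without control male replicate 4 there were 18. The calls over all genes moved as well, from 2466 with all livers to between 1766 and 2947 without 1 liver. The 2947 were those without control male replicate 4.

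How members varied together was described for 4 pairs in each sex, chosen with earlier results known, as deviations of log2(CPM + 1) from the group mean, with a two-sided permutation test of 100000 resamples and adjustment over the 8 relations. The type I chains followed each other closely: Pearson's r of Col1a1 with Col1a2 was 0.962 over 12 females (Spearman's rho 0.986, permutation adjusted p = 4e-05 for both) and 0.993 over 11 males (rho 0.991, adjusted p = 0.000107 for r and 0.00024 for rho). Without the 2 livers farthest from the median, r was 0.946 and 0.988. Col1a1 with Col3a1 gave 0.972 in females (rho 0.979, permutation adjusted p = 4e-05 for both) and 0.987 in males (rho 0.955, adjusted p = 0.00026 and 0.00114), and 0.970 and 0.966 without the 2 farthest livers. The smallest p that these resamples can give before adjustment is 1e-05.

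In males, Col4a1 and Col4a2 varied together, with r of 0.913 (rho 0.918, permutation adjusted p = 0.000928 and 0.00128) and 0.951 without the 2 farthest livers. In females r was 0.242 (rho 0.245, permutation adjusted p = 0.485 and 0.460), and -0.266 without the 2 farthest livers; the difference between the sexes was not tested. Col1a1 with Timp1 gave 0.904 in males (rho 0.918, permutation adjusted p = 0.00119 and 0.00145) and 0.668 in females (rho 0.713, adjusted p = 0.0340 and 0.0238). Without the 2 farthest livers these were 0.832 and 0.692, with permutation adjusted p of 0.0578 over 9 males and 0.0746 over 10 females. In females r was no smaller without those livers. The ratio of Col1a1 to Col1a2 FPKM had medians of 1.41 in control females, 1.91 in LKO females, 2.23 in control males and 2.13 in LKO males, with no test.

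**Figure D5:**
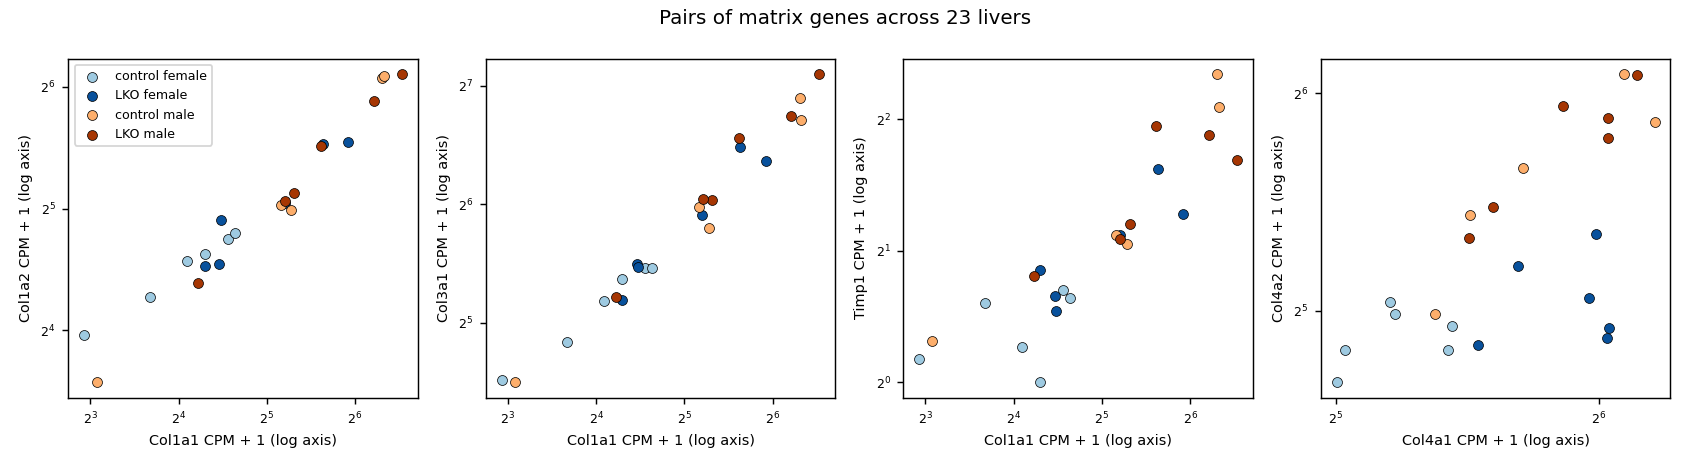
CPM + 1 on log axes for 4 pairs of members, 1 point per liver. Points of Col1a1 with Col1a2 and with Col3a1 lie along a line in all groups, while LKO females lie to the right of the control females for Col4a1 at similar Col4a2.

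Of neighbouring members, Col3a1 and Col5a2 are 24614 bases apart on chromosome 1, Adamts1 and Adamts5 53059 bases apart on chromosome 16, and Col6a2 and Col6a1 85161 bases apart on chromosome 10. Of the 51 members, 18 overlap another listed gene, 15 of them 1 on the opposite strand, among them Timp1 with Syn1, Mmp19 with Tmem198b, and Col4a1 with Col4a2. On the same strand, 4 members overlap another listed gene: Col4a1 with Gm44716, Timp2 with Cep295nl, and Col20a1 and Mmp14 each with a long noncoding RNA. The libraries keep the strand, but whether the counting used it is not given in the sources used here. Strand alone would not separate the pairs on the same strand. Counts of the 18 members are therefore uncertain where they overlap another gene.

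Genes outside the name rule that act in the same pathway were counted as a list of 55. None was called in either sex. In females 8 of 52 tested (15.4 percent) were higher and none lower at an unadjusted p under 0.05, where 8.31 and 7.33 percent of all genes were, and the median log2 fold change was 0.08. In males 2 of 53 were higher and 2 lower, 3.77 percent each, beside 5.23 and 7.22 percent of all genes. The lowest p-values in females were those of Mfap4, a microfibril protein, at 0.79 (SE 0.24, edgeR adjusted p = 0.121), and Nid1, a linker of basement membranes, at 0.42 (SE 0.13, adjusted p = 0.127). In males they were P4ha1, a collagen prolyl hydroxylase, at 0.59 (SE 0.22, edgeR adjusted p = 0.309) and Vtn, the plasma protein vitronectin, at -0.30 (SE 0.13, adjusted p = 0.386). By group, 2 of 14 genes of collagen maturation, 1 of 14 of TGF-beta signalling and 5 of 24 other matrix proteins were higher in females at an unadjusted p under 0.05. Between the control sexes, 7 of 53 were called (13.2 percent, beside 18 percent of all genes), 4 higher (7.55 percent) and 3 lower (5.66 percent) in females.

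Markers of other liver cells were measured beside these genes. The 8 stellate cell markers summed to medians of 139 CPM in control females, 150 in LKO females, 129 in control males and 143 in LKO males, and the 6 portal fibroblast markers ran from 10.3 to 20.4 CPM in control females, 14 to 36.0 in LKO females, 11.7 to 43.2 in control males and 14.4 to 25.5 in LKO males. The 5 myofibroblast markers, such as Acta2, ran from 9.81 to 23.6, 10.9 to 38.1, 9.70 to 43.9 and 10.9 to 18.8 CPM in the same order. No gene of these 3 lists was called in LKO against control livers. All 5 portal fibroblast markers tested had positive log2 fold changes in females (median 0.46, 2 at an unadjusted p under 0.05) and negative ones in males (median -0.38, 1 at an unadjusted p under 0.05). The 5 myofibroblast markers ran from -0.67 to 0.79 in females (median 0.27, 4 positive and 1 negative), and the 3 tested in males were all negative (median -0.63). Of these, Acta2 had 0.62 in females and -0.68 in males (edgeR adjusted p = 0.275 and 0.386). The 8 stellate cell markers ran from -0.26 to 0.49 in females (median 0.03, 6 positive and 2 negative), with Lrat at 0.49 (edgeR adjusted p = 0.142). In males their median was 0.09 (5 positive and 3 negative). Fbln2 and Mfap4 are both portal fibroblast markers and members of the pathway list. The 4 cholangiocyte markers tested were also all positive in females (median 0.28), and 3 of the 4 were negative in males (median -0.49). All 6 sinusoidal endothelium markers were negative in females (median -0.19), and 3 of the 6 in males (median -0.01). No gene of the cholangiocyte and endothelium lists was called. Of the 5 markers of lipid-associated macrophages, 3 rose in LKO females (edgeR adjusted p under 0.05), Gpnmb by a log2 fold change of 3.22 (SE 0.42), Trem2 by 1.32 (SE 0.18) and Spp1 by 0.66 (SE 0.12), and none was called in males. Their sum ran from 72.0 to 103 CPM in control females and from 99.3 to 159 CPM in LKO females. In males this sum ran from 77.8 to 285 CPM in controls and from 69.0 to 345 CPM in LKO livers. Control male replicate 4 was lowest and replicate 1 highest for the portal fibroblast and myofibroblast sums, and LKO female replicate 4 was highest for both among the LKO females. None of the stellate cell, portal fibroblast, myofibroblast and lipid-associated macrophage markers was at 0 in every liver of a sex. The part of these cells in the results was not tested.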

How the data were processed

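Counts per gene were deposited by the authors in 1 table per sex, from bulk liver RNA selected with poly-T beads, random primed and dUTP-stranded per the labels' protocols. HISAT2 2.0.5 and build mm39 are named in the submitters' processing notes; the counter and the annotation are not given in the sources used here. The authors also deposited normalized counts, a signal scaled within each table, FPKM per gene length, and their own log2 fold changes and p-values, whose tool is not named. The 2 tables list 24940 and 24434 genes, 22852 of them shared.

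The members and all gene lists were chosen with earlier results of these data known. Counts were tested with edgeR 4.0.16 in R 4.3.3 (filterByExpr, TMM factors, quasi-likelihood test, Benjamini-Hochberg adjustment over all genes tested, with 0.05 as the threshold), separately for each sex; the interaction and the female to male comparison of controls used genes in both tables. Total counts per liver ran from 14224665 to 19626662. The SE is the log2 fold change over the square root of the F statistic. The fits were run on simulated data whose planted log2 fold changes were larger than that of Col4a1. How often smaller changes would be called was not tested.

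Genes named are every called member, the 4 lowest p-values per direction and sex, the 6 highest in FPKM, a fixed set of main collagens, proteases and inhibitors, and the 3 lowest interaction p-values; Col5a3, Col6a2, Col4a5, Adamts10 and Adamts15 were added with their values seen. Same-numbered livers were not treated as pairs, since the numbers did not deviate together in both sexes. Other settings tried were RLE factors, library size alone, no filter or at least 10 counts in every sample, DESeq2 1.42.0, a replicate block, a fit of all 23 livers, limma 3.58.1 on log2(FPKM + 1) or log2(FPKM + 0.1), and leaving out each liver. No liver was imputed or dropped from a main fit.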

Additional observations from a re-analysis of the deposited data

Results flagged for a closer look

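In 112 sets of a named member's CPM in a group, 5 had a liver whose gap to its nearest neighbour was wide for the range of the group by Dixon's 95 percent limit; chance alone marks about 1 set in 20. Col27a1, a fibrillar collagen, reached 64.6 CPM in control female replicate 4, and the next control female was at 23.9 CPM. Adamts1 reached 20.9 CPM in LKO male replicate 4, with the next LKO male at 12.9 CPM. Mmp15 reached 96.3 CPM in control male replicate 3, with the next control male at 65.3 CPM. Col5a2 was lowest in LKO female replicate 5, at 3.57 CPM where the next was at 4.84 CPM, and without that liver the gene passed the edgeR test in females. Mmp19 was lowest in LKO male replicate 3, at 22.4 CPM where the next was at 27.9 CPM. The 5 values came from 5 different livers, and no cause was tested.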

How the results depend on the processing

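Col4a1 stayed called in females in all 21 alternatives. The member calls, 1 in females and 0 in males, became 6 and 1 with DESeq2 and 4 and 0 with a replicate block, and were unchanged by the scaling, filter and FPKM alternatives. With the block, the 4 in females were Adamts2, Col1a1, Col3a1 and Col4a1. The calls over all genes in females, 194, became 559 with DESeq2, 334 with the replicate block, 94 in the fit of all 23 livers and 87 to 233 without 1 liver; member calls were 1 to 3 without 1 liver. The 1 call in males became 112 with DESeq2, 5 in the fit of all 23 livers, 3 with at least 10 counts in every sample, 2 with library size alone, with no filter and with the replicate block, and 1 to 2 without 1 liver. The interaction had 96 calls with DESeq2 and 0 to 17 without 1 liver; calls between control sexes were 6 to 18 of the members and 1766 to 2947 of all genes without 1 liver.

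Livers with the same number correlated at 0.144, 0.151, 0.129, 0.201, -0.00681 and 0.126 in females and at -0.393, -0.00514, 0.423, -0.11 and -0.0301 in males, and correlated best with their own number in 4 of 6 and 1 of 5 pairs, as a hint from the data. With the replicate block, Col6a3 in males turned to 0.0927 and Timp1 in males to 0.21.

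No called log2 fold change reversed. In females, without 1 liver, Adamts1 ran from -0.0713 to 0.15, Mmp17 from -0.064 to 0.28, Mmp9 from -0.0771 to 0.21 and Timp3 from -0.40 to 0.0041. In males, Adamts2 ran from -0.0446 to 0.24, Col14a1 from -0.0746 to 0.19, Col1a1 from -0.18 to 0.37, Col1a2 from -0.19 to 0.30, Col3a1 from -0.0189 to 0.46, Col4a1 from -0.0258 to 0.19, Col4a2 from -0.0066 to 0.27, Col6a1 from -0.28 to 0.0738, Col6a3 from -0.21 to 0.12, Loxl2 from -0.0263 to 0.30, Mmp14 from -0.10 to 0.12, Mmp15 from -0.0318 to 0.27, Timp1 from -0.38 to 0.32 and Timp2 from -0.16 to 0.0316. Mmp14 in males was 0.0446 with library size alone, 0.0022 with at least 10 counts in every sample and 0.0031 in the fit of all 23 livers. Col6a3 in males was 0.0274 on log2(FPKM + 0.1), and Timp1 in males 0.0599 on log2(FPKM + 1) and 0.24 on log2(FPKM + 0.1). The relation of Col4a1 with Col4a2 in females was -0.266 without the 2 farthest livers. The cause was not tested for any of these. Counts of at most 13 for Mmp13 and 43 for Timp1 limit what could be shown in females.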
